A study of Homo sapiens with 9 samples.

Results

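The genes described here are the human zinc finger genes with symbols of the form ZNF plus a digit that lie on autosomes other than chromosome 19. They were followed in definitive endoderm derived from H9, an established human embryonic stem cell line, with and without the chromatin remodeller CHD7. The members were chosen from the count table by symbol, by position in GENCODE 29 on GRCh38, and by a mean of at least 1 CPM, the count scaled to library size, over the 9 libraries. This left 228 genes of the 26240 in the table. The symbol alone matched 557 rows, of which 276 were on autosomes other than 19. The choice used measured levels, so the levels that it selected on are given as a description.

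Definitive endoderm is the embryonic layer that gives rise to the gut, liver, pancreas and lungs. The CHD7 gene had been deleted in H9 cells by CRISPR/Cas9 editing. RNA was sequenced from 3 homozygous mutant (CHD7-/-), 3 heterozygous mutant (CHD7+/-) and 3 wild-type (CHD7+/+) libraries, all of H9-derived endoderm. The study compared expression among these genotypes. The labels name no clone, culture or day, so the p-values reflect library-to-library spread alone, and that spread may be technical.

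Genes of this kind encode proteins with tandem C2H2 zinc fingers, small folds that hold a zinc ion and read a few bases of DNA each. Many also carry a KRAB domain, which recruits the co-repressor TRIM28 and, through it, the histone methyltransferase SETDB1, and silences transposable elements in embryonic stem cells. The family expanded by tandem duplication, so that its genes often lie in clusters of close paralogs. Other members lack a KRAB domain and act as activators, in chromatin complexes or at chromosomes in mitosis.

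The libraries held 11854173 to 37519729 counts. CHD7 itself fell to 51.5 ± 7.40 CPM in homozygous and 123 ± 11.2 CPM in heterozygous libraries, against 193 ± 3.29 CPM in wild-type libraries (SD, n = 3 each). The summed CPM of 8 definitive endoderm markers was 6999 to 8109 in homozygous, 8684 to 9745 in heterozygous and 10388 to 11196 in wild-type libraries. Most of the sum was CER1, which averaged 4626, 6119 and 7239 CPM in the same order. Of the 8, 3 (FOXA2, CER1 and HHEX) were called lower in homozygous libraries than in wild type. SOX17, CXCR4, GATA6, EOMES and GSC were not called in any comparison. The summed trophoblast and amnion markers were 23.0 to 29.5 CPM in homozygous, 13.04 to 13.8 CPM in heterozygous and 9.25 to 11.99 CPM in wild-type libraries. GATA3 and TFAP2C were called higher in homozygous libraries than in wild type, while the other listed markers, GABRP, KRT7 and TFAP2A, stayed under 0.5 CPM. The summed fibroblast markers were 68.3 to 95.4 CPM in homozygous, 89.0 to 114 CPM in heterozygous and 91.0 to 115 CPM in wild-type libraries. LOX and COL1A2 were called lower in homozygous libraries. COL1A1, of the same list, went the other way and was not called. It averaged 49.7 CPM in homozygous, 49.7 CPM in heterozygous and 28.6 CPM in wild-type libraries. The summed visceral endoderm and liver markers were 43.0 to 48.3 CPM in homozygous, 25.3 to 29.01 CPM in heterozygous and 27.6 to 31.4 CPM in wild-type libraries, with HNF4A called higher in homozygous libraries. The summed mesoderm markers were 19.01 to 33.2 CPM in homozygous, 31.2 to 39.8 CPM in heterozygous and 42.1 to 57.9 CPM in wild-type libraries, with KDR called lower in homozygous libraries. Of the markers in these lists, LUM, COL3A1, AFP, HAND1 and MESP1 were under 0.5 CPM in every library. TBXT, of the mesoderm list, averaged 2.28 CPM over the 9 libraries and was not called. Summed pluripotency markers were 2220 to 2310 CPM in homozygous, 2120 to 2455 CPM in heterozygous and 2429 to 2593 CPM in wild-type libraries. Most of this was LIN28A, which averaged 1999, 1966 and 2310 CPM in that order and was not called. POU5F1 ran from 33.4 to 122 CPM, 116 to 193 CPM and 56.0 to 95.2 CPM in the same order. NANOG was called lower in homozygous than in heterozygous libraries (adjusted p = 0.0401, edgeR). Neuroectoderm markers, nearly all OTX2, summed to 583 to 625, 612 to 681 and 652 to 705 CPM, with none called. The other markers of that list were low, with means of 0.331 CPM for PAX6, 0.269 CPM for LHX2 and 0.0211 CPM for SOX1. The sum therefore describes OTX2 and not the list as a whole. The part of such cell mixtures in the results below was not tested, and in bulk RNA fewer cells of a type and less RNA per cell cannot be told apart.

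Sequences just upstream of RefSeq transcription starts were read for some zinc finger genes in and beside the chromosome 7 and chromosome 4 clusters, because called and uncalled paralogs lie side by side there. RefSeq promoters of GRCh38.p14 matched all but 43 of the 228 members. The first set is the 250 bases upstream of 5 chromosome 7 genes, given 5′ to 3′ on the strand of the gene. It is chr7:64563072-64563321 (minus strand) for ZNF680, chr7:64665883-64666132 (plus) for ZNF107, chr7:64794178-64794427 (plus) for ZNF138, chr7:64903023-64903272 (plus) for ZNF273 and chr7:65373605-65373854 (plus) for ZNF92. ZNF273 has 2 RefSeq starts, and the one whose window holds the octamer is shown. Capitals mark the octamer ATGCAAAT and the box CCAATCA, searched on both strands.
ZNF680: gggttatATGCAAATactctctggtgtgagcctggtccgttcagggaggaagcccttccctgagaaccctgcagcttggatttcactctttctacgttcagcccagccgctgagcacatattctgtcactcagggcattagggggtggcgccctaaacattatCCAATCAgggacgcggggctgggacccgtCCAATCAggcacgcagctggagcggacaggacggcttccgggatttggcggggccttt
ZNF107: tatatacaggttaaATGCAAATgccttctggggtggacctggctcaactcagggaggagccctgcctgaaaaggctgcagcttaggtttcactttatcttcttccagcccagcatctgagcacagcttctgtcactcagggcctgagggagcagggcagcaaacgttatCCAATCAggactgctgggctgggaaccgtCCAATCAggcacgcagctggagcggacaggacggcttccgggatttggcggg
ZNF138: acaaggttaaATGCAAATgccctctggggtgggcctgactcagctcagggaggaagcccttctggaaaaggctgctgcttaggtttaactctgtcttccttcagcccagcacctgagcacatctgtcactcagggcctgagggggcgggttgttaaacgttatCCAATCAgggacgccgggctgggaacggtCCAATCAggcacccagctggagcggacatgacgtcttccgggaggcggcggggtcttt
ZNF273: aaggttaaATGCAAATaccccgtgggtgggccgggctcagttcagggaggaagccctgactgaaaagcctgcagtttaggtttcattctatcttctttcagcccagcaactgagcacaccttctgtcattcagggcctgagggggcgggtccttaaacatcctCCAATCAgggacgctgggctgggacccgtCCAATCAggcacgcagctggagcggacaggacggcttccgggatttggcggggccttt
ZNF92: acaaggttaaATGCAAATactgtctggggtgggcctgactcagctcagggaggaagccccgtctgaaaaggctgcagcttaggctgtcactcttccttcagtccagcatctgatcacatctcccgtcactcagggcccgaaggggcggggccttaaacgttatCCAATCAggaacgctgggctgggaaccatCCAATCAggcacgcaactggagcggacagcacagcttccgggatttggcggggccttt
The cluster member ZNF117 has a RefSeq window without the octamer, as has the other start of ZNF273, and neither is printed. Each of the 5 windows, shown because they hold the octamer, held 1 octamer and 2 CCAATCA boxes, and pairs of them were 78.4% to 85.3% identical. The octamer was present in 1.63% of 35116 human promoter windows and in 1.61% of the members' windows, 4 in all, which are printed here with that of the neighbouring ZNF680. CCAATCA was present in 6.62% of all windows and in 11.6% of the windows of the members. The motifs were chosen after the sequences had been seen. As described below, ZNF107, ZNF273 and ZNF680 fell in homozygous libraries, and ZNF138 and ZNF92 were not called. Any link between the motifs and these levels was not tested.

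The second set compares ZNF595, which was higher in both mutants, with its close paralog ZNF141, which was not called against wild type. The windows are chr4:53071-53320 for ZNF595 and chr4:337564-337813 for ZNF141, both on the plus strand, with the same marks.
ZNF595: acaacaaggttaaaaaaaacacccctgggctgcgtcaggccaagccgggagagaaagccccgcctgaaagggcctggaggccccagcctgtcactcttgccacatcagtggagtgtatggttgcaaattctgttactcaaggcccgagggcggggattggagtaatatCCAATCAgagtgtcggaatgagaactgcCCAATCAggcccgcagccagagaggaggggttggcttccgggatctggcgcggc
ZNF141: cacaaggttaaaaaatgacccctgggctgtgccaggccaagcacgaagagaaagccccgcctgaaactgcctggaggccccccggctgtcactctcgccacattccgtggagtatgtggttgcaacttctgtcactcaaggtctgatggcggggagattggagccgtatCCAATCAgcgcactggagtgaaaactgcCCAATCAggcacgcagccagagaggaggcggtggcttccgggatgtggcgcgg
These were 83.5% identical, and both held 2 CCAATCA boxes and no octamer. A match describes the letters of the window and says nothing of what binds there.

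The members were expressed over a wide range. Their mean level had a median of 15.9 CPM and quartiles of 7.08 and 33.9 CPM, and 10 members exceeded 100 CPM. By biotype 209 were protein coding and 19 were antisense, long noncoding or pseudogene transcripts. ZNF532, a partner gene of NUTM1 fusions in carcinoma, had the highest mean at 280.1 CPM. ZNF664 (241 CPM), ZNF638 (219.6 CPM), ZNF207 (214 CPM) and ZNF609 (169 CPM) followed. ZNF638 encodes a nuclear protein that silences unintegrated retroviral DNA, and ZNF207 a kinetochore protein that loads BUB3 onto chromosomes. None of these 5 was called in any of the 3 comparisons. Per kilobase of exon, ZNF48 led at 44.97 CPM per kb, ahead of ZNF664 at 38.03 CPM per kb, while the median was 3.21 CPM per kb.

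At the threshold of 1 CPM, the members just inside were ZNF236-DT (mean 1.005 CPM), ZNF23 (1.03 CPM) and ZNF35 (1.09 CPM). Just outside were ZNF658B (0.873 CPM), ZNF852 (0.826 CPM) and ZNF680 (0.822 CPM). Of the members, 222 had a mean of at least 1 CPM in each genotype and 6 did not, among them ZNF469 and ZNF595, whose wild-type levels were below it. Those 2 genes therefore entered through the genotypes in which they were high. All 228 members passed the filter on low counts.

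Most zinc finger genes were not called in any comparison. With edgeR's quasi-likelihood test and Benjamini-Hochberg adjustment over all 16837 genes tested, a gene was called at an adjusted p below 0.05. In homozygous against wild-type libraries 19 of 228 members were called (8.33%), 13 higher and 6 lower, where 7.68% of all genes were called (3.5% higher and 4.18% lower). The median log2 fold change was -0.03 over the members and 0.01 over all genes tested. In heterozygous against wild-type libraries 6 members were called (2.63%), 5 higher and 1 lower, against 1.86% of all genes (0.82% higher and 1.04% lower), with medians of 0.00 for both. Between homozygous and heterozygous libraries 5 were called (2.19%), 2 higher and 3 lower, against 2.21% of all genes (0.986% higher and 1.22% lower), with medians of -0.03 and 0.01. The total shares lay near those of all genes. By direction, members higher in homozygous libraries made up 5.70% and members lower 2.63%, in heterozygous against wild-type libraries 2.19% and 0.439%, and between homozygous and heterozygous libraries 0.877% and 1.32%. These splits were not tested against those of all genes. Without ZNF469 and ZNF595, a choice made after the data were seen, the counts were 17 (11 higher, 6 lower), 5 (4 higher, 1 lower) and 4 (1 higher, 3 lower). Both comparisons with wild type share the wild-type libraries. At an unadjusted p below 0.05 the counts were 53, 29 and 46 members (23.2%, 12.7% and 20.2%), against 23.2%, 13.5% and 18.3% of all genes tested. Leaving out wild-type replicate 3 left 11 of the 19 calls, leaving out wild-type replicate 2 left 12, and leaving out homozygous replicate 3 gave 29. Leaving out homozygous replicate 3 gave 11 in place of 6 in the heterozygous comparison.

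**Figure D1:**
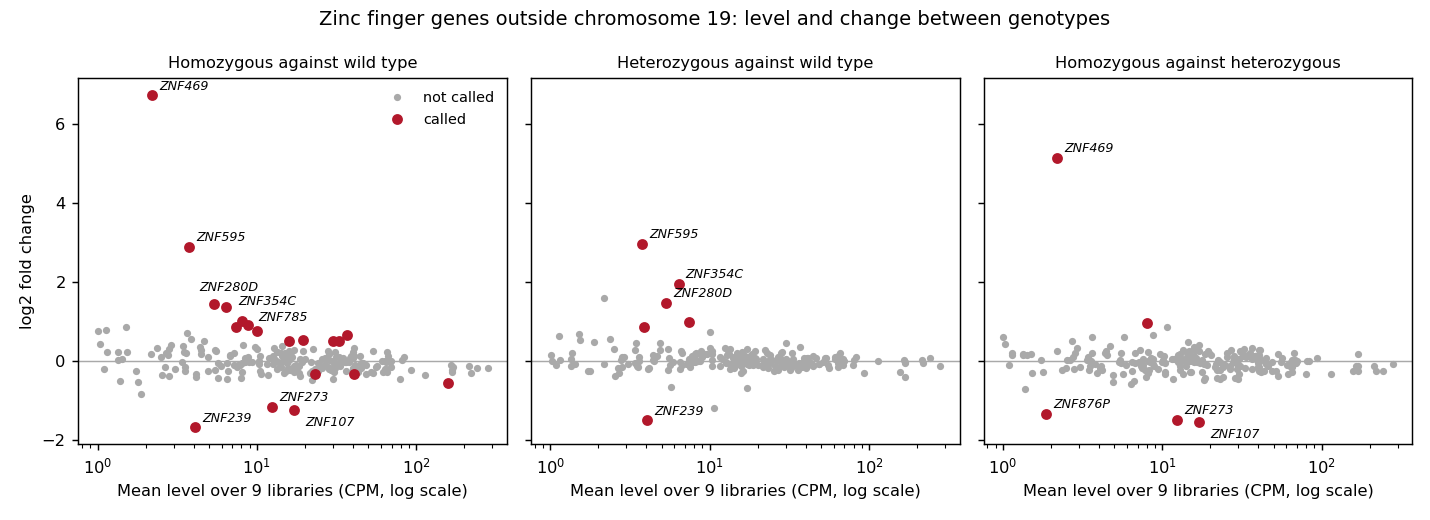
Mean level of each of the 228 zinc finger genes over 9 libraries (CPM, log scale) against its log2 fold change in the 3 comparisons, with called genes in red and those past 1 in size named. Grey points gather around 0, and ZNF469 stands highest at 6.74 in homozygous against wild-type libraries.

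In all, 21 members were called in at least 1 comparison and 207 in none. Of the 19 called in homozygous against wild-type libraries, 8 had changed by more than 1 on the log2 scale. Against wild type, 5 members were called in both mutants, and 4 of these, ZNF595 among them, rose and 1 fell. Both comparisons share the wild-type libraries. The matching shares over all genes were not counted, for this overlap or for the 21, so neither is read as particular to the members. Calls that stood under 15 alternative analyses numbered 11 of 19, 4 of 6 and 4 of 5 in the 3 comparisons. Each of these counts includes ZNF469, ZNF595 or both, which are members only through the genotypes in which they were high. ZNF469 and ZNF785, higher in homozygous libraries than in both other genotypes, are described first, then rises in both mutants, then falls.

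**Figure D2:**
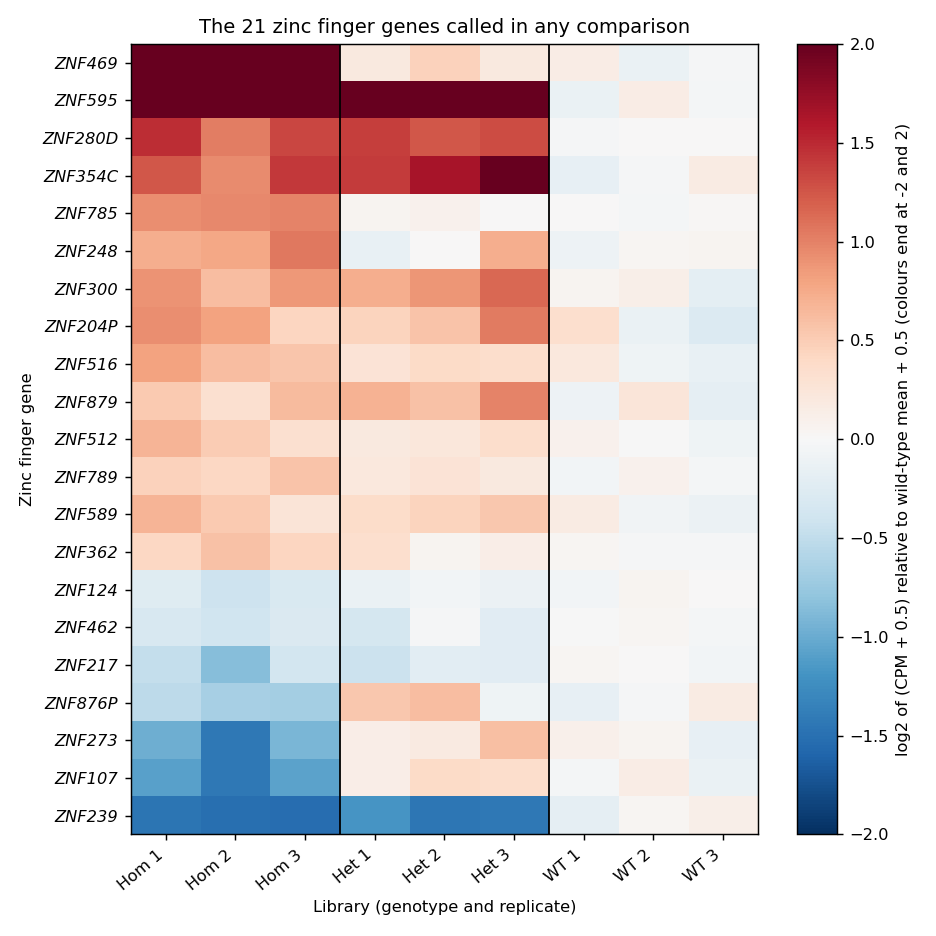
Level of the 21 called zinc finger genes in each library, as log2 of (CPM + 0.5) relative to the wild-type mean + 0.5, with homozygous libraries on the left, heterozygous in the middle and wild type on the right, and genes sorted by their change in homozygous libraries. ZNF469 and ZNF785 are strongly red in the homozygous libraries, ZNF595, ZNF280D and ZNF354C in both mutants, and ZNF239 is blue in both mutants.

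ZNF469 (ENSG00000225614, chromosome 16, 88427471 to 88440757, plus strand) encodes a very large protein, mutated in brittle cornea syndrome, a disorder of collagen-rich tissue. It had 8.02, 5.59 and 5.38 CPM in the homozygous libraries, 0.130, 0.256 and 0.127 CPM in the heterozygous libraries, and 0.107, 0 and 0.0415 CPM in the wild-type libraries. Every homozygous library was far above all 6 others, and both other genotypes were near 0. Summed over each genotype there were 373, 14 and 5 counts in homozygous, heterozygous and wild-type libraries, or 5.99, 0.171 and 0.0544 CPM. Their 95% Poisson intervals, which cover counting error only, were 5.40 to 6.63, 0.0936 to 0.287 and 0.0177 to 0.127 CPM. The fitted log2 difference was 6.74 (SE 0.46) between homozygous and wild-type libraries and 5.15 (SE 0.40) between homozygous and heterozygous libraries. It is given as a description with no test, since ZNF469 is a member through its homozygous level alone, and with so few wild-type counts it depends on the prior count of the model. ZFPM1, the GATA cofactor FOG1, starts within 25846 bases of ZNF469 and was called higher in homozygous libraries by 0.58 (SE 0.16, adjusted p = 0.0438, edgeR).

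ZNF785 (ENSG00000197162, chromosome 16, 30573740 to 30585771, minus strand), a KRAB zinc finger gene, had between 11.8 and 12.3 CPM in the 3 homozygous libraries. It had 6.21, 6.32 and 5.97 CPM in heterozygous and 5.98, 5.80 and 6.06 CPM in wild-type libraries. The homozygous values were all higher than the others, while heterozygous and wild-type values overlapped. On the log2 scale the change was 1.02 (SE 0.12, adjusted p = 0.000194, edgeR) against wild type and 0.96 (SE 0.12, adjusted p = 0.000811, edgeR) against heterozygous libraries. ZNF785 lies in a cluster of 13 members on chromosome 16, of which no other was called. Its exons overlap an antisense gene that averaged 0.0283 CPM.

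ZNF595 (ENSG00000272602, chromosome 4, 53285 to 88211, plus strand) is a KRAB zinc finger gene close to the end of the chromosome. It had 5.34, 4.83 and 5.33 CPM in homozygous, 5.14, 5.59 and 5.59 CPM in heterozygous, and 0.590, 0.819 and 0.664 CPM in wild-type libraries. All 6 mutant values lay above all wild-type values, and the mutants overlapped. The fitted log2 difference from wild type was 2.90 (SE 0.20) in homozygous and 2.97 (SE 0.19) in heterozygous libraries, and that between homozygous and heterozygous libraries was -0.08 (SE 0.16). These too are a description with no test, since the wild-type level of ZNF595 lay under the threshold of membership. The 3 genes ZNF469, ZNF595 and ZNF680 had been singled out with earlier results of these data known.

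ZNF280D and ZNF354C rose in both mutants. ZNF280D had 7.77, 5.52 and 6.97 CPM in homozygous, 7.22, 6.50 and 6.86 CPM in heterozygous, and 2.41, 2.49 and 2.49 CPM in wild-type libraries. ZNF354C, a KRAB gene known as a transcriptional repressor, had 6.76, 5.39 and 7.72 CPM in homozygous, 7.64, 9.16 and 13.05 CPM in heterozygous, and 2.25, 2.52 and 2.95 CPM in wild-type libraries. For both genes the mutant values lay above all wild-type values, with the heterozygous libraries of ZNF354C spread more widely. ZNF280D changed by 1.44 (SE 0.17, adjusted p = 0.000176) in homozygous and by 1.48 (SE 0.16, adjusted p = 0.000267) in heterozygous libraries, by edgeR. ZNF354C changed by 1.36 (SE 0.23, adjusted p = 0.00252) and by 1.95 (SE 0.22, adjusted p = 0.000294), by edgeR. Of the 75-base windows of ZNF280D transcripts, 25.2% also occur in an overlapping readthrough gene, so its reads could be split in counting.

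ZNF300, another KRAB gene, averaged 8.38 ± 0.935 CPM in homozygous, 9.18 ± 1.49 CPM in heterozygous and 4.58 ± 0.567 CPM in wild-type libraries (SD, n = 3 each). It was called higher by 0.86 (SE 0.17, adjusted p = 0.00723, edgeR) and by 0.99 (SE 0.16, adjusted p = 0.00681, edgeR). The heterozygous call was lost without wild-type replicate 3. ZNF248 rose in homozygous libraries by 0.91 (SE 0.21, adjusted p = 0.0201, edgeR). It had 11.02, 11.4 and 13.9 CPM in homozygous, 5.79, 6.50 and 11.01 CPM in heterozygous, and 5.98, 6.65 and 6.76 CPM in wild-type libraries. The third heterozygous library stood near the homozygous ones, and the ZNF248 call was lost when any 1 wild-type library was left out. ZNF204P, a processed pseudogene, rose by 0.76 in homozygous libraries (SE 0.21, adjusted p = 0.0492, edgeR), close to the threshold, and kept its call in 9 of 15 alternatives.

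The other 5 rises in homozygous libraries lay outside the rule for named genes and were named after their values were seen. They were ZNF516, which activates heat-producing genes in mouse brown fat (0.67), ZNF512 (0.52), ZNF789 (0.50), ZNF589 (0.50) and ZNF362 (0.49). ZNF516 averaged 45.3 ± 4.33 CPM in homozygous, 36.1 ± 1.35 CPM in heterozygous and 28.5 ± 3.86 CPM in wild-type libraries (SD, n = 3 each). Its homozygous values were all above the others. The calls of ZNF512, ZNF789, ZNF589 and ZNF362 were each lost in at least 1 alternative, always including the one without wild-type replicate 3. Of the ZNF512 windows, 26.6% are shared with a readthrough gene, and ZNF789 shares 445 exon bases with ZNF394 on the other strand.

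ZNF239 (ENSG00000196793, chromosome 10, 43556344 to 43574618, minus strand), whose protein binds DNA and RNA, fell in both mutants. It had 2.34, 2.25 and 2.24 CPM in homozygous, 2.96, 2.37 and 2.41 CPM in heterozygous, and 6.43, 7.60 and 8.01 CPM in wild-type libraries. No mutant value reached the lowest wild-type value. The change on the log2 scale was -1.69 (SE 0.17, adjusted p = 6.57e-05, edgeR) in homozygous and -1.50 (SE 0.17, adjusted p = 0.000265, edgeR) in heterozygous libraries. The difference between the mutants was -0.19 (SE 0.18, adjusted p = 0.600, edgeR). It lies among 6 members on chromosome 10, of which the other 5 were not called in any comparison.

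**Figure D3:**
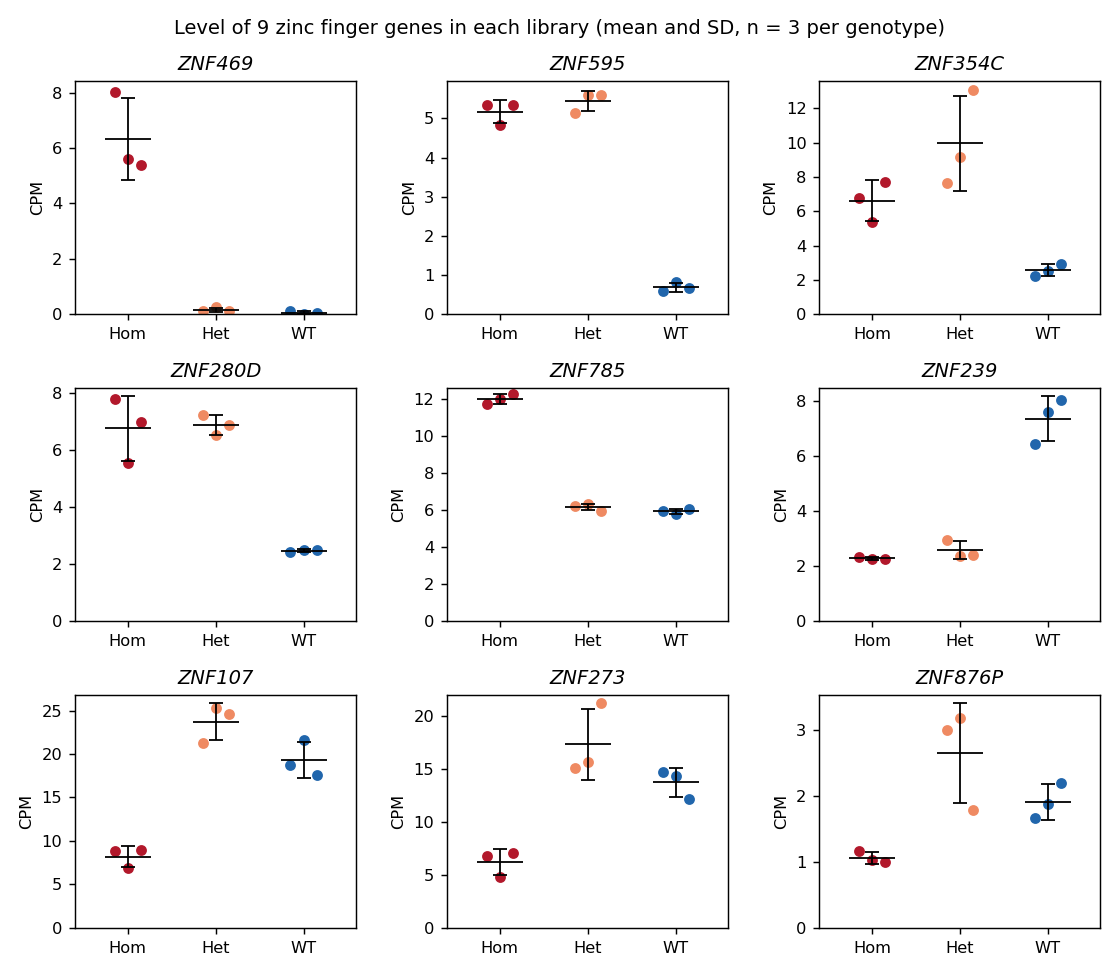
Level in CPM of 9 zinc finger genes in each library, with homozygous (Hom) left, heterozygous (Het) in the middle and wild type (WT) right, points for libraries and bars for the mean and SD of 3. ZNF469 and ZNF785 separate the homozygous libraries from both others, and ZNF107 and ZNF273 do so in the opposite direction.

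ZNF107 and ZNF273, genes of the chromosome 7 cluster with the uncalled ZNF138 between them, fell in homozygous libraries against both other genotypes. ZNF107 had 8.85, 6.85 and 8.92 CPM in homozygous, 21.3, 25.3 and 24.7 CPM in heterozygous, and 18.7, 21.6 and 17.6 CPM in wild-type libraries. ZNF273 had 6.76, 4.79 and 7.07 CPM in homozygous, 15.1, 15.6 and 21.2 CPM in heterozygous, and 14.7, 14.3 and 12.2 CPM in wild-type libraries. All homozygous values lay below every other library. ZNF107 changed by -1.25 (SE 0.14, adjusted p = 0.000119, edgeR) against wild type and by -1.55 (SE 0.14, adjusted p = 5.13e-05, edgeR) against heterozygous libraries. ZNF273 changed by -1.17 (SE 0.18, adjusted p = 0.00157, edgeR) and by -1.50 (SE 0.18, adjusted p = 0.000624, edgeR). Against wild type the heterozygous values were 0.30 (SE 0.13, adjusted p = 0.337) for ZNF107 and 0.33 (SE 0.17, adjusted p = 0.423) for ZNF273, by edgeR.

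ZNF680, the next zinc finger gene on chromosome 7 and not a member, was low in both mutants. It had 0.418, 0.265 and 0.249 CPM in homozygous libraries, none in the heterozygous libraries, and 1.88, 2.06 and 2.53 CPM in wild-type libraries. Over the genotypes these were 18, 0 and 194 counts. The fitted log2 difference between homozygous and wild-type libraries was -2.85 (SE 0.35). It is given as a description with no test, since ZNF680 was singled out with earlier results known. Its wild-type level alone took it past the filter on low counts. With the empty heterozygous libraries set at 3 counts in all, they were 57.5-fold lower than wild type, and homozygous libraries were 7.87-fold higher than heterozygous. These folds leave out counting error in the 194 and 18 counts, so they are not lower limits. The 95% Poisson intervals were 0.171 to 0.457 CPM in homozygous, 0 to 0.0451 CPM in heterozygous and 1.82 to 2.43 CPM in wild-type libraries. ZNF107 and ZNF273 were not called in heterozygous against wild-type libraries.

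None of the other members of this chromosome 7 cluster passed the test. In homozygous against wild-type libraries ZNF138 had -0.32 (adjusted p = 0.255), ZNF117 -0.20 (adjusted p = 0.570) and ZNF92 -0.45 (adjusted p = 0.161) by edgeR. In the chromosome 4 cluster ZNF595 was higher in both mutants, which is a description as above. ZNF718 (-0.29), ZNF876P (-0.85), ZNF141 (-0.26) and ZNF721 (-0.13) did not pass the test in the homozygous comparison with wild type. ZNF876P, a pseudogene, had 1.17, 1.03 and 0.996 CPM in homozygous, 2.99, 3.18 and 1.78 CPM in heterozygous, and 1.66, 1.87 and 2.20 CPM in wild-type libraries. It differed between homozygous and heterozygous libraries by -1.34 (SE 0.27, adjusted p = 0.0246, edgeR) and kept that call in 10 of 15 alternatives. ZNF732 (mean 0.212 CPM), a zinc finger gene between ZNF876P and ZNF141 and too low to be a member, had 0 counts in homozygous and heterozygous libraries, against 57 in wild-type libraries. With each empty genotype set at 3 counts in all, homozygous libraries were 12.9-fold and heterozygous libraries 16.9-fold lower than wild type. These folds leave out counting error in the 57 counts, so they are not lower limits. They are a description with no test, since ZNF732 passed the filter on low counts through its wild-type level alone. It also lay outside the rule for named genes.

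In the chromosome 5 cluster, ZNF354A (-0.31) and ZNF354B (-0.11) did not pass the test in the homozygous comparison with wild type, beside the rise of ZNF354C. ZNF879 averaged 3.999 ± 0.487 CPM in homozygous, 4.95 ± 0.831 CPM in heterozygous and 2.70 ± 0.509 CPM in wild-type libraries (SD, n = 3 each). It was called higher in heterozygous libraries (0.87, SE 0.20, adjusted p = 0.0441, edgeR), a call kept in 8 of 15 alternatives.

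**Figure D4:**
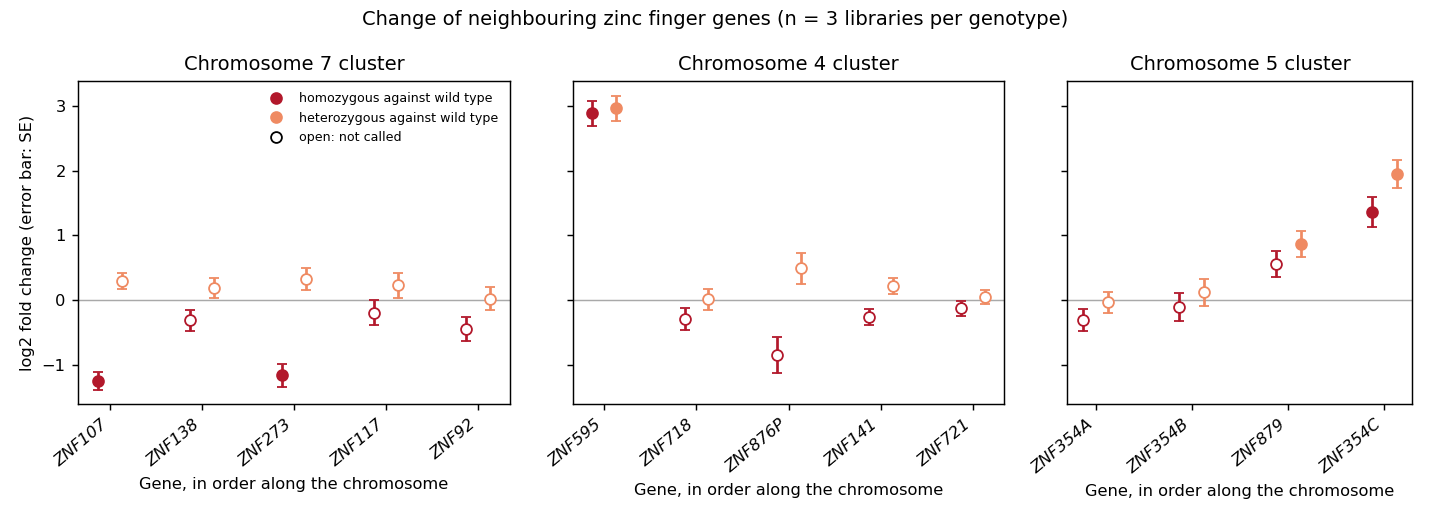
Log2 fold change with SE of neighbouring zinc finger genes on chromosomes 7, 4 and 5, for homozygous (dark red) and heterozygous (orange) against wild-type libraries, with filled points called and open points not called. ZNF595 stands at 2.90 and 2.97, which is a description with no test. The other members of its cluster are not called against wild type, and ZNF107 and ZNF273 are the called genes of the chromosome 7 cluster.

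By position, 125 members lay in 25 clusters, each of 3 or more members with starts within 1 Mb of the next, and 103 lay outside. A called member occurred in 11 clusters, where 21 of all 228 members were called in any comparison. A chromosome 7 cluster of 12 members held none. Whether calls gathered by cluster was not tested. Up to 2 nearest tested genes on each side of the 19 members called in homozygous against wild-type libraries were read. Flanking genes that were themselves called members, such as ZNF107 and ZNF273, were left out, which lowers the share called. Of the 71 left, 4 (5.63%) were called, near the 7.68% of all genes. They were ZNF680, ZFPM1, TMEM38B and RAD23B, of which ZNF680 passed the filter on low counts through its wild-type level alone.

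The remaining falls in homozygous libraries were smaller. ZNF217, an oncogene product found in co-repressor complexes, had 135, 104 and 146 CPM in homozygous, 140.1, 163 and 161 CPM in heterozygous, and 195, 189.1 and 182 CPM in wild-type libraries. Its homozygous values lay below every wild-type value and overlapped the heterozygous ones, and it fell by 0.55 on the log2 scale (SE 0.11, adjusted p = 0.00931, edgeR). ZNF462, mutated in a neurodevelopmental syndrome, had a change of -0.34 (SE 0.10, adjusted p = 0.0496, edgeR), and ZNF124 of -0.33 (SE 0.09, adjusted p = 0.0498, edgeR). These last 2 calls stood in 6 and 2 of 15 alternatives.

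A pattern for the core of the KRAB box was searched in the longest open reading frames of the coding members. It matched in 81 and not in 128 others. The pattern can miss a box, so the 128 may include KRAB genes. In homozygous against wild-type libraries 10 of the 81 were called (12.3%, with 7 higher and 3 lower) and 8 of the 128 (6.25%, with 5 higher and 3 lower), where 7.68% of all genes were called. In heterozygous against wild-type libraries the counts were 4 (4.94%, all higher) and 2 (1.56%, with 1 higher and 1 lower), where 1.86% of all genes were called. ZNF595 is among the KRAB calls in both comparisons, and ZNF469 among the others in the homozygous one. The difference between members with and without a match was not tested. Members with a match had a median of 10 fingers and those without of 7. Their median log2 fold changes in homozygous against wild-type libraries were -0.08 and -0.03. Summed over the 81 KRAB members, the level was 1257 to 1425 CPM in homozygous, 1357 to 1586 CPM in heterozygous and 1418 to 1479 CPM in wild-type libraries, and the ranges overlapped.

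Among genes of the KRAB co-repressor pathway, 1 of 23 tested was called in homozygous against wild-type libraries and 0 in the other comparisons by edgeR, where 3, 2 and 3 (13.04%, 8.70% and 13.04%) had an unadjusted p below 0.05, against 23.2%, 13.5% and 18.3% of all genes. The called gene was CHD3, a remodeller of the NuRD complex, which rose by 0.45 (SE 0.10, adjusted p = 0.0131, edgeR). TRIM28 averaged 778 ± 56.5 CPM in homozygous, 713 ± 124 CPM in heterozygous and 822 ± 57.8 CPM in wild-type libraries (SD, n = 3 each) and was not called.

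Zinc finger genes of the same symbol form on chromosome 19 gave other counts. Of 222 such genes, 29 were called in homozygous against wild-type libraries (13.1%, 6 higher and 23 lower), where 7.68% of all genes were called. Their median log2 fold change was -0.14, and among the 228 described here 13 were called higher and 6 lower. In heterozygous against wild-type libraries 16 were called (7.21%, 2 higher and 14 lower), against 1.86% of all genes. Between homozygous and heterozygous libraries 13 were called (5.86%, 7 higher and 6 lower), against 2.21% of all genes. Of 69 ZSCAN, ZKSCAN, ZBTB or ZFP genes, 3, 0 and 1 were called in the 3 comparisons, by edgeR, where 11, 6 and 7 (15.9%, 8.70% and 10.1%) had an unadjusted p below 0.05, less than the shares of all genes given above. These sets were compared by counts alone, and the difference between them was not tested.

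The summed level of all 228 members was lowest at 5853 CPM in homozygous replicate 2 and highest at 7152 CPM in heterozygous replicate 3. Homozygous replicate 2 held the lowest value of 82 members and the highest of 32, with a median of -0.10 (log2) relative to the wild-type mean. Heterozygous replicate 3 held the highest value of 74 members and the lowest of 44. The median SD of log2 levels within a genotype was 0.16 for the members and 0.19 for all genes tested.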

How the data were processed

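Total RNA of endoderm cells derived from H9 was sequenced, per the labels. The authors deposited raw read counts per Ensembl gene, 1 column per library, without pooling. FastQC, Trimmomatic, HISAT2, SAMtools, HTSeq and the build hg38 are named in the submitters' processing notes. Strand setting and annotation release were not given in the sources used here. Hence overlapping antisense genes can share counts. Paralogs can share them where their transcripts match. No 75-base window of ZNF107, ZNF138, ZNF92, ZNF595 or ZNF354C transcripts occurred in another gene, and 0.149% of those of ZNF273 did. Symbols were matched through a table of gene IDs, positions through GENCODE 29.

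Low counts were filtered by genotype with filterByExpr (edgeR 4.0.16, R 4.3.3), and the rest were scaled by TMM and fitted in 1 quasi-likelihood model on all 9 libraries with genotype as the factor. Tests were two-sided. CPM use TMM-adjusted library sizes. DESeq2 1.42.0 was an alternative. The tests were checked on simulated data. Replicate pairs of a genotype differed beyond counting noise (chi-square per degree of freedom 2.64 to 33.3), so all 9 libraries were counted. The members and lists were chosen with earlier results of these data known. Named genes were the 3 marker genes, up to 8 largest rises and 8 largest falls among called members per comparison, the 5 highest members, those beside the threshold, clusters with 2 or more called members, called co-repressors and CHD7. Intervals cover counting error only, and floors cover it only in the empty genotype.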

Additional observations from a re-analysis of the deposited data

How the results depend on the processing

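The number of called members in homozygous against wild-type libraries was 19, and it was 17 with RLE size factors, 17 with upper quartile scaling, 18 without a filter on low counts, 22 with DESeq2 and 18 from the 6 libraries of the comparison alone. Leaving out each of the 9 libraries gave 11 to 29. In heterozygous against wild-type libraries the count of 6 became 11 with DESeq2 and 11 from the 6 libraries alone, and 4 to 11 with a library left out. Between homozygous and heterozygous libraries the count of 5 became 8 with DESeq2, and 4 to 6 with a library left out. The cause of these shifts was not tested. Without ZNF469 and ZNF595, added after seeing the data, the counts were 17, 5 and 4. With membership at 0.5 CPM the counts were 21, 7 and 7, and at 2 CPM 19, 6 and 4. No called change of a named gene turned round in sign under these alternatives. The labels give the genotypes the same replicate numbers. Deviations of same-numbered libraries from their genotype mean correlated at -0.19 to 0.24, and those of differently numbered libraries at -0.43 to 0.36. Deviations centred on a mean of 3 libraries depend on each other, so these values cannot settle whether the numbers pair the libraries. A replicate block gave 18, 8 and 5 called members. Over all genes it gave 1503, 492 and 461 calls in place of 1293, 313 and 372. Depth limits the fold changes of ZNF469 and ZNF680, which had 5 and 0 counts in the genotype where they were lowest.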

Other observations

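Of the members that missed the threshold in heterozygous against wild-type libraries, 2 are given here and were named after their values were seen. ZNF703, a repressor amplified in breast cancer, had 6.64, 6.24 and 5.97 CPM in heterozygous libraries and 10.6, 15.9 and 16.7 CPM in wild-type libraries, with homozygous libraries spread from 6.76 to 17.8 CPM. Its change was -1.19 (SE 0.28, adjusted p = 0.0556, edgeR). ZNF37A had 11.3, 11.9 and 15.7 CPM in heterozygous and 20.1, 21.9 and 20.9 CPM in wild-type libraries, a change of -0.70 (SE 0.17, adjusted p = 0.0669, edgeR). In both genes every heterozygous value lay below every wild-type value, and both were called with DESeq2.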
